A study of Mus musculus with 12 samples.

Results

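A set of 10 mesenchymal genes of the lung was followed across a mouse tumour series: Pdgfra, Pdgfrb, Acta2, Tagln, Dcn, Lum, Tcf21, Inmt, Npnt and Cspg4. They were taken by name from the 19212 genes of the deposited table, and all 10 were found. The series held 12 libraries of messenger RNA in 4 groups of 3, all labelled as lung cancer tissue of the mouse. For the knockdown arm, cells of the Lewis lung carcinoma (LLC), a mouse tumour line, received a negative control lentivirus (group NC, genotype label WT) or a lentivirus that knocks down OTUB1, a deubiquitinase (group OTUB1_KD). These cells were then placed in the lungs of mice to form tumours. For the treatment arm, tumour-bearing mice with the genotype label WT received physiological saline (group Blank) or an agent labelled SFD@M (group SFD@M), whose makeup the labels do not describe. LLC was the tumour line throughout. The labels give no mouse strain, age, dose or treatment time, and do not say whether the libraries of 1 group are separate animals. The p-values below therefore measure the spread between these libraries, which may be technical.

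Fibroblasts, pericytes and smooth muscle cells are the connective tissue cells of the lung. Platelet-derived growth factor (PDGF) ligands made by epithelium, endothelium and other cells act on them through receptors encoded by Pdgfra, typical of fibroblasts, and Pdgfrb, typical of pericytes and other mural cells. Cspg4 encodes the pericyte proteoglycan NG2. Acta2 and Tagln encode contractile proteins of smooth muscle, whose transcription is driven by serum response factor (SRF) with its cofactors. Tcf21, a transcription factor, Inmt, an indolethylamine methyltransferase, and Npnt, the matrix ligand nephronectin, are well known from alveolar fibroblasts, although Npnt is also made by alveolar epithelium. Dcn and Lum encode decorin and lumican, small leucine-rich proteoglycans that bind collagen fibrils.

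Library totals ran from 16062805 to 18028815 counts. The NC and Blank libraries, although labelled as tissue, held almost no RNA of lung endothelium or leukocytes. Whether these libraries come from tumour tissue, as labelled, or from cultured cells cannot be told here. Every control level and fold change below carries that limit. Between 2 libraries of a control group, the chi-square of the counts per degree of freedom was 1.32 to 2.00, where sampling noise alone gives about 1, against 16.8 to 160.0 in OTUB1_KD and SFD@M. The summed level of 10 endothelial markers was 2.20 to 3.05 CPM (counts scaled to the library total) in NC and 1.05 to 1.45 CPM in Blank, and 8 leukocyte markers summed to at most 0.747 CPM. The endothelial markers summed to 1126 to 3035 CPM in OTUB1_KD and 2922 to 3990 CPM in SFD@M, which are called lung-rich below, while NC and Blank are called controls. Cdh5, Cldn5 and Tie1 were among 6 endothelial markers at 0 counts in NC. Otub1 itself had 73.3 ± 3.23 CPM in NC and 59.7 ± 11 CPM in OTUB1_KD (mean ± SD, n = 3), with OTUB1_KD replicate 3 inside the NC range. Its log2 fold change there was -0.36 and did not pass 0.05 (edgeR adjusted p = 0.112). In SFD@M against Blank, where no knockdown is labelled, it was -0.71 (edgeR adjusted p = 5.8e-06). In that comparison 88.1% of all genes had an adjusted p below 0.05. In these bulk libraries, fewer cells of a type and less RNA per cell cannot be told apart.

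The mesenchymal genes fell into 3 patterns by their level in the controls. Tcf21, Npnt, Inmt and Tagln were at or near 0 in NC and Blank, at most 1.07 CPM in any of those 6 libraries. Acta2, Dcn and Cspg4 were present there at a low level, 2.38 to 21.2 CPM. Pdgfra, Pdgfrb and Lum were well expressed, at 56.1 to 177 CPM. In OTUB1_KD against NC, 8 of the 10 were higher and 1 was lower by edgeR's quasi-likelihood test at an adjusted p below 0.05. Over all 14785 genes tested, 39.9% were called higher and 25.8% lower, 65.7% in either direction. In SFD@M against Blank, 9 were higher and 1 was lower, where 49.5% and 38.7% of 14824 genes were called in those directions and 88.1% in either. All 10 passed the filter on low counts in both, Tcf21, Npnt, Inmt and Tagln through the lung-rich libraries alone. Since Tcf21, Npnt, Inmt and Tagln were tested only because their lung-rich level was high, their adjusted p below adds no support. With backgrounds of that size a call set no member apart, so levels and sizes of change are given below.

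**Figure D1:**
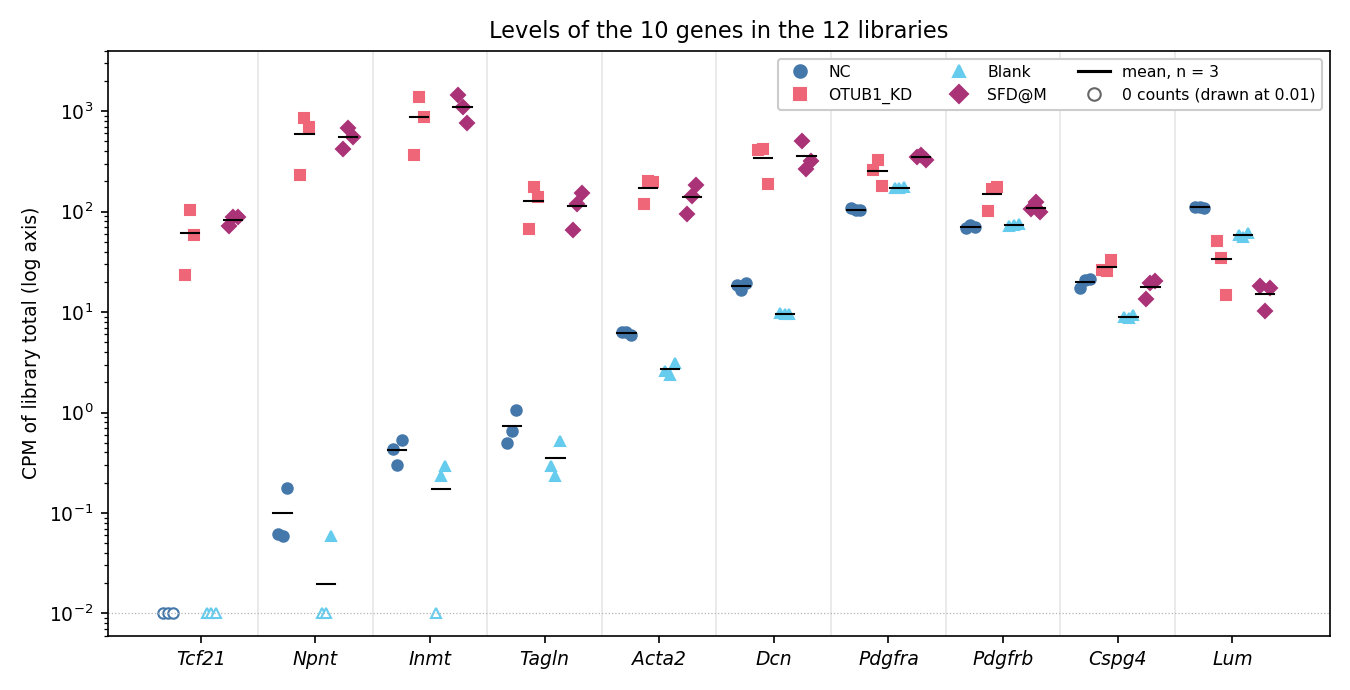
CPM of each gene in each of the 12 libraries on a log axis, with the mean of 3 libraries as a bar and 0 counts drawn as open symbols at 0.01. Tcf21, Npnt, Inmt and Tagln sit at or below 1.07 CPM in NC and Blank, whereas Lum is lower in OTUB1_KD and SFD@M than in the controls.

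Tcf21, a basic helix-loop-helix factor of lung, kidney and heart mesenchyme, had 0 counts in all 6 NC and Blank libraries. It was at 23.4, 104 and 58.5 CPM in the 3 OTUB1_KD libraries, in the order of their replicate numbers here and below. In the SFD@M libraries it was at 71.6, 89.2 and 89.2 CPM. Every library of these groups was thus above every control, and OTUB1_KD replicate 1 was the lowest. Against the floor of 3 counts over the 3 NC libraries, Tcf21 was at least 1027-fold higher in OTUB1_KD (edgeR adjusted p = 0.000824). Against the same floor over Blank it was at least 1433-fold higher in SFD@M (edgeR adjusted p = 5.22e-07). To show the start of a gene that had 0 counts in every control, the 250 bases before the Tcf21 start are printed from RefSeq (GRCm38.p6, chr10:22820144-22820393, minus strand), with CG dinucleotides, the sites of DNA methylation, in capitals.
Tcf21: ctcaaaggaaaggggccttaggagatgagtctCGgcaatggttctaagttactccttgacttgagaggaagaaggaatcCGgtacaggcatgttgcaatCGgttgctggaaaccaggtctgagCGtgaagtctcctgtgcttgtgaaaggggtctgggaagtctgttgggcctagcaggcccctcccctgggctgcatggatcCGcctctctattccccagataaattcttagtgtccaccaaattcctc
These bases held 5 CG. With the 50 bases after the start the window held 8, against a median of 7 (quartiles 3 and 20) over 32851 RefSeq windows of the same length. Methylation was not measured in this series.

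Inmt had the highest mean level of the members in both lung-rich groups. Its levels were 0.436, 0.297 and 0.533 CPM in NC and 370, 1379 and 874 CPM in OTUB1_KD. In Blank they were 0, 0.232 and 0.292 CPM, against 1445, 1100 and 770.1 CPM in SFD@M. The groups did not overlap in either experiment, and the libraries of OTUB1_KD differed among themselves by 3.73-fold. Inmt rose by 10.92 log2 units (SE 0.705, edgeR adjusted p = 4.03e-05) in OTUB1_KD and by 12.53 (SE 0.462, adjusted p = 1.62e-07) in SFD@M. Its control values rest on 21 counts in NC and 9 in Blank. The 250 bases before the Inmt start (RefSeq, GRCm38.p6, chr6:55174991-55175240, minus strand) are shown as an unlike start to that of Tcf21, with the letters TATAAA in capitals.
Inmt: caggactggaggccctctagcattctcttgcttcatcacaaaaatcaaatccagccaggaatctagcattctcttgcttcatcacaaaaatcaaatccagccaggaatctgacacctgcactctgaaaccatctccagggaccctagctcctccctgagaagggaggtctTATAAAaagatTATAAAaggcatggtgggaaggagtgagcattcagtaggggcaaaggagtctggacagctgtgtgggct
TATAAA occurred there at 80 to 75 and at 69 to 64 bases before the start, without overlap. Searched on both strands, 2 or more TATAAA were found in 2.36% of the 32851 windows. The Inmt window held 0 CG, as did 5.43% of windows. A match in letters is a description and does not show binding.

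Npnt, whose product is a ligand of the integrin made of Itga8 and Itgb1, was at 0.0623, 0.0594 and 0.178 CPM in NC, which is 5 counts in all. In OTUB1_KD it stood at 232, 863 and 689.8 CPM, with replicate 1 again the lowest. Blank held 1 count in total, in replicate 3, and SFD@M had 419.7, 678 and 559 CPM. The log2 fold change in OTUB1_KD was 12.37 (SE 0.814, edgeR adjusted p = 4.34e-05). In SFD@M the ratio to Blank was 28500, with a 95% counting interval of 5115 to 1126000 that covers counting error alone (edgeR adjusted p = 6.03e-08). Within OTUB1_KD, the TPM of Npnt stayed at 1.94 to 2.88 times that of Tcf21, although Tcf21 itself ran from 33.1 to 133 TPM. In SFD@M that ratio was 1.36 to 1.75, below every OTUB1_KD library.

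Acta2, which encodes the actin of vascular and airway smooth muscle and of myofibroblasts, was detected in every library. It was at 6.29, 6.30 and 5.87 CPM in NC and at 120.0, 201 and 199 CPM in OTUB1_KD. Blank held 2.62, 2.38 and 3.09 CPM, and SFD@M 95.6, 145 and 183 CPM. The NC libraries were thus above all Blank libraries, and all 6 of the other libraries were far above both. The log2 fold change was 4.75 (SE 0.262, edgeR adjusted p = 2.5e-05) in OTUB1_KD and 5.67 (SE 0.301, adjusted p = 1.05e-06) in SFD@M. SRF acts on smooth muscle genes through CArG boxes, so the 250 bases before the Acta2 start (RefSeq, GRCm38.p6, chr19:34255374-34255623, minus strand) are printed with CArG-like matches in capitals.
Acta2: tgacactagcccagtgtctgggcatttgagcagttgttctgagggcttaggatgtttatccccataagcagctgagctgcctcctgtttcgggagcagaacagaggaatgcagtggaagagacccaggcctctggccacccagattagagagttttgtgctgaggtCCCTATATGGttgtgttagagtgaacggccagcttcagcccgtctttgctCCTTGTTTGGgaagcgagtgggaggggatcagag
The matches lay 84 to 75 and 34 to 25 bases before the start, and each has 1 letter other than a full CArG box allows. Windows with at least 2 such matches made up 0.822% of the 32851 windows, and windows with at least 1 made up 9.98%; both strands were searched and the box reads as itself on the other strand. Among 10 other smooth muscle genes with a window, 2 held a match, Myl9 and Ldb3. No window was used for Tagln, Dcn, Lum and Pdgfrb. The members Pdgfra, Tcf21, Inmt, Npnt and Cspg4 had 0 matches, which says only that these letters are not in that stretch.

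Tagln encodes transgelin, an actin-binding protein of smooth muscle. Its levels were 0.498, 0.654 and 1.07 CPM in NC and 66.5, 175 and 139.8 CPM in OTUB1_KD. In Blank they were 0.291, 0.232 and 0.525 CPM, against 65.6, 119.8 and 152 CPM in SFD@M. No library of a control group reached any library of the group compared with it. Tagln rose by 7.34 log2 units (SE 0.512, edgeR adjusted p = 5.28e-05) in OTUB1_KD and by 8.27 (SE 0.508, adjusted p = 2.34e-06) in SFD@M. Relative to each other, the smooth muscle genes differed between controls and lung-rich libraries. In TPM, a length-corrected share of transcripts, Acta2 was 5.00 to 13.1 times Tagln in NC and 6.31 to 9.10 times in Blank. In OTUB1_KD it was 0.987 to 1.60 times and in SFD@M 1.04 to 1.27 times. The control ratios rest on 37 and 18 Tagln counts per group.

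Pdgfra, the receptor that binds PDGF-A and other PDGF chains and marks lung fibroblasts, was at 109, 103 and 103 CPM in NC. In OTUB1_KD it was at 257, 323 and 179.9 CPM. The Blank libraries were at 170.1, 172 and 177 CPM and the SFD@M libraries at 351, 363 and 329 CPM. The OTUB1_KD replicate 3 library, the lowest of its group, lay close to the Blank libraries but above all NC libraries. The log2 fold change was 1.20 (SE 0.223, edgeR adjusted p = 0.00321) in OTUB1_KD and 0.97 (SE 0.0572, adjusted p = 1.5e-06) in SFD@M. NC held 41.4% of the OTUB1_KD level and Blank 49.8% of the SFD@M level, in libraries almost without endothelial RNA.

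Pdgfrb, the receptor of pericytes that binds PDGF-B, was at 68.1, 73.7 and 69.8 CPM in NC and 102, 168 and 177 CPM in OTUB1_KD. Blank had 72.2, 73.3 and 75.9 CPM and SFD@M had 106, 124 and 99.6 CPM. All lung-rich libraries were above all controls. The log2 fold change was 1.01 (SE 0.23, edgeR adjusted p = 0.00734) in OTUB1_KD and 0.54 (SE 0.0858, adjusted p = 0.000501) in SFD@M. On log2(TPM + 1) with no filter on low values, the SFD@M change was 0.25 and was not called (limma adjusted p = 0.0544). The ratio of Pdgfra to Pdgfrb in TPM was 1.14 to 1.31 in NC and 1.89 to 1.90 in Blank. It was 2.39 to 2.71 in SFD@M, and it spread from 2.04 and 1.57 to 0.842 in the OTUB1_KD libraries, where replicate 3 had the lowest Pdgfra and the highest Pdgfrb.

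Cspg4, the NG2 proteoglycan of pericytes and some tumour cells, was the least abundant member per length in the lung-rich libraries. NC libraries were at 17.6, 20.8 and 21.2 CPM and OTUB1_KD libraries at 26.4, 25.6 and 32.7 CPM. Blank libraries were at 8.95, 8.70 and 9.27 CPM and SFD@M libraries at 13.5, 19.6 and 20.4 CPM. The groups of each experiment did not overlap, yet the SFD@M libraries lay in or below the range of NC. In SFD@M against Blank the log2 fold change was 0.96 (SE 0.17, edgeR adjusted p = 0.000942). In OTUB1_KD against NC it was 0.44 (SE 0.178) and was not called (edgeR adjusted p = 0.0612). There it was called at 0.48 without OTUB1_KD replicate 1 (edgeR adjusted p = 0.0488), at 0.51 without OTUB1_KD replicate 2 (adjusted p = 0.0436) and at 0.42 when all 12 libraries entered the model (adjusted p = 0.0462).

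Dcn, the decorin gene of fibroblasts, was at 18.6, 16.6 and 19.6 CPM in NC and at 409, 423 and 190.1 CPM in OTUB1_KD. The Blank libraries held 9.71, 9.63 and 9.50 CPM and the SFD@M libraries 504, 264 and 317 CPM. Each lung-rich library exceeded each control, with OTUB1_KD replicate 3 the lowest of them. Dcn rose by 4.15 log2 units (SE 0.341, edgeR adjusted p = 9.6e-05) in OTUB1_KD and by 5.19 (SE 0.267, adjusted p = 8.9e-07) in SFD@M.

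Lum went the other way. It was the member with the highest TPM in both controls. It was at 112, 111 and 109 CPM in NC and at 51.4, 34.8 and 14.9 CPM in OTUB1_KD. It was at 58.6, 56.1 and 61.7 CPM in Blank and at 18.1, 10.3 and 17.3 CPM in SFD@M. Every lung-rich library was below every control of its experiment. Lum fell by 1.79 on the log2 scale in OTUB1_KD (SE 0.401, edgeR adjusted p = 0.00702) and by 1.99 in SFD@M (SE 0.186, adjusted p = 2.58e-05). The summed level of 4 Y-linked genes, listed here for tumour RNA, was 340.5 to 348 CPM in NC and 368 to 375 CPM in Blank. In SFD@M this sum was 0.0475% to 0.442% of the Blank mean. In OTUB1_KD the sum was 36.9%, 0.184% and 7.08% of the NC mean. Y-linked genes mark tumour RNA only if the host mice carry no Y chromosome, and host sex is not given here. The part of tumour RNA in the Lum values was not tested.

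Since Lum was lower and Dcn higher in the lung-rich groups, their ratio by arithmetic separated the groups more widely than either gene. In TPM, Lum was 4.94 to 5.98 times Dcn in NC and 5.19 to 5.80 times in Blank. The ratio was 0.0699 to 0.111 in OTUB1_KD and 0.0317 to 0.0478 in SFD@M. On the RefSeq map these genes lie next to each other, in the order Dcn, Lum, Kera and Epyc, all 4 being proteoglycans of the same family. Kera, which encodes keratocan of the cornea, had 0.282 CPM in NC and 0.0191 CPM in OTUB1_KD, and Epyc stayed under 1 CPM in every library.

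**Figure D2:**
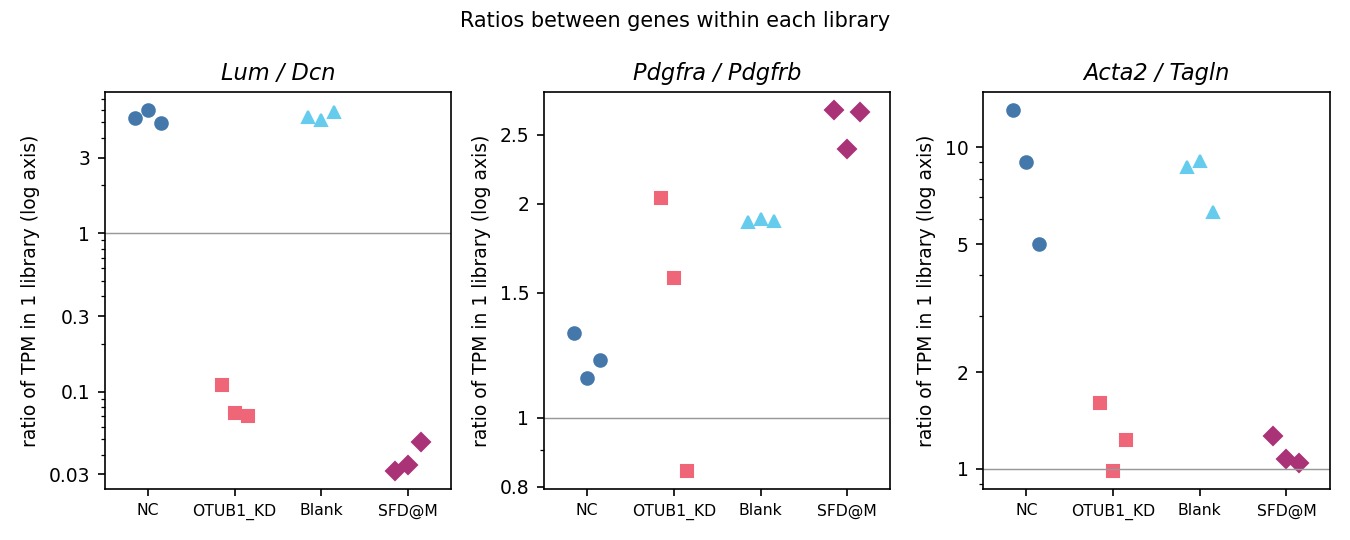
Ratio of TPM between 2 genes within each library, on log axes, with 1 point per library and a grey line at 1. Lum exceeds Dcn in all NC and Blank libraries and lies at or below 0.111 of it in all others, and Acta2 and Tagln come close to equal levels in the lung-rich libraries.

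The plot of fold changes sets both experiments side by side for each gene. Each fold is a ratio to the control level, so its size depends in part on that level, and no relation between the size of change and the control level was tested.

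**Figure D3:**
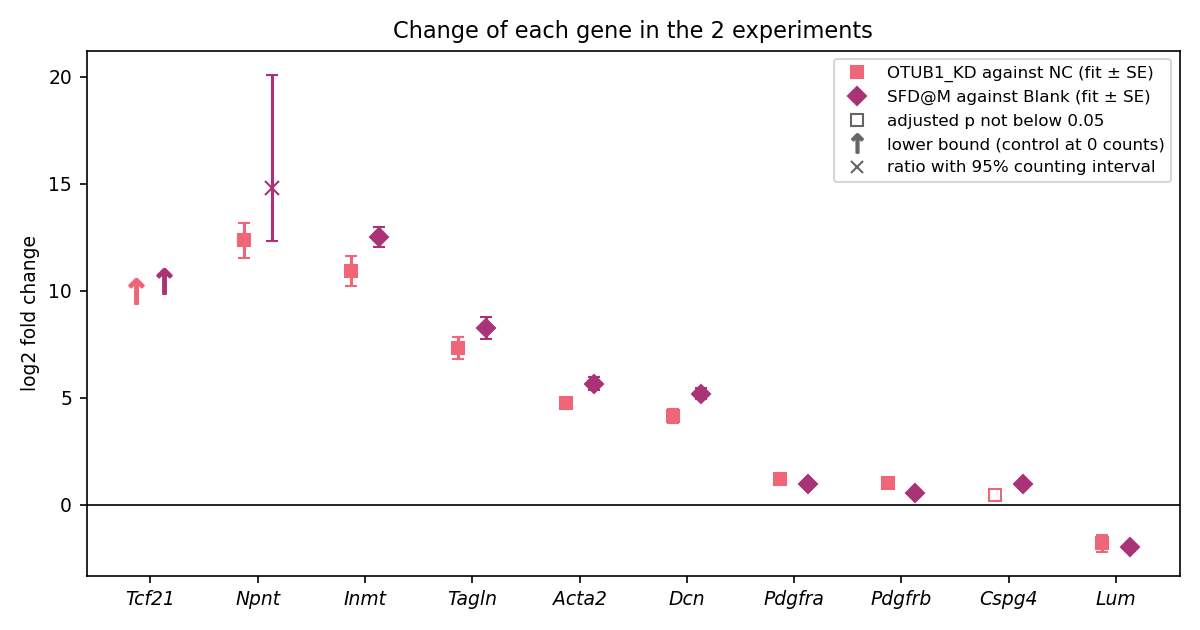
Log2 fold change of each gene in OTUB1_KD against NC and in SFD@M against Blank, with SE bars from edgeR. Arrows give the lower bound for Tcf21, the cross gives the Npnt ratio with its 95% counting interval, and the open square marks Cspg4 at an adjusted p of 0.0612.

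Per length, the order of the members turned over between controls and lung-rich libraries. In NC the order by TPM was Lum (95.1 ± 1.72), Pdgfra (25.7 ± 0.941), Pdgfrb (21.1 ± 0.897), Dcn (17.6 ± 1.44), Acta2 (6.95 ± 0.663) and Cspg4 (3.88 ± 0.394), with SD and n = 3. No neighbours in that stretch overlapped, while Inmt and Tagln below them did. In Blank the first 6 had the same order, from Lum at 52.0 ± 2.48 TPM to Cspg4 at 1.81 ± 0.06 TPM. In SFD@M the order was Inmt (1932 ± 570.1), Dcn (292 ± 94.7), Npnt (170.1 ± 44.2), Acta2 (122 ± 38.1), Tagln (111 ± 43.7) and Tcf21 (111 ± 15.9). Pdgfra (71.0 ± 4.94), Pdgfrb (27.5 ± 3.87), Lum (10.8 ± 2.80) and Cspg4 (2.93 ± 0.67) followed. The neighbours from Npnt to Tcf21 overlapped there and the others did not. OTUB1_KD gave the same order, from Inmt at 1502 ± 821 TPM to Cspg4 at 4.81 ± 0.874 TPM, but every pair of neighbours from Dcn to Lum overlapped. TPM is a share, and the leading transcript of Scgb1a1 alone took 8.81% to 19.5% of it in OTUB1_KD and 23.3% to 23.8% in SFD@M. Relative to edgeR's scaling, TPM lowered the median gene by 0.17 and 0.27 log2 units in the knockdown and treatment comparisons, over genes at 1 CPM or more.

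The controls differed from each other. Blank was compared with NC for the 6 members that passed the filter on low counts; Tagln, Tcf21, Inmt and Npnt did not pass. Pdgfra was higher in Blank by 0.72 log2 units (SE 0.0302, edgeR adjusted p = 7.11e-35), while 37% of 12087 genes were called higher. Lum (-0.91, SE 0.0369), Dcn (-0.93, SE 0.0844), Cspg4 (-1.15, SE 0.0851) and Acta2 (-1.19, SE 0.144) were lower, with edgeR adjusted p from 7.12e-36 to 1.47e-11, where 37.2% of genes were called lower and 74.3% in either direction. Lum was not called in a fit of all 12 libraries (-0.96, edgeR adjusted p = 0.0714). Pdgfrb differed by 0.06 (SE 0.0385, edgeR adjusted p = 0.14) and was called at 0.09 without NC replicate 2 (adjusted p = 0.0492), with no filter (0.09, adjusted p = 0.0481) and on TPM (limma, 0.11 to 0.12, adjusted p 0.0342 to 0.0471). The experiment and the group cannot be told apart in this comparison.

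The lung-rich groups were also set side by side. In SFD@M against OTUB1_KD, 0 members were called by edgeR, where 0.0134% of 14914 genes were called. At an unadjusted p under 0.05 there were 2 by edgeR, Lum and Cspg4, beside 2966 of the 14914 genes. That is a like share, so the count sets no member apart. DESeq2 also called 0 members, with 2 at that unadjusted p. Lum differed by -1.13 (95% interval -2.12 to -0.13) and Cspg4 by -0.66 (-1.22 to -0.09). Both were called lower in a fit of all 12 libraries (edgeR adjusted p = 0.0424 and 0.0282), where 1874 genes were called lower. The Cspg4 libraries of the groups did not overlap, whereas those of Lum did. For Acta2 the interval ran from -0.98 to 0.41, for Tcf21 from -0.57 to 1.48 and for Inmt from -0.69 to 1.41. These intervals thus left room for more than 2-fold higher levels of Tcf21 and Inmt in SFD@M.

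The change in SFD@M less the change in OTUB1_KD, tested as an interaction over all 12 libraries, was called for 0 members by edgeR, against 23.1% of 15304 genes. Acta2 (0.95, SE 0.366) and Dcn (1.08, SE 0.404) had unadjusted p of 0.0241 and 0.0216 and adjusted p of 0.082 and 0.076. Over all genes, 5638 of 15304 had an unadjusted p under 0.05. DESeq2 called Dcn alone of the members (1.07, adjusted p = 0.0418), among 4417 genes called. Without OTUB1_KD replicate 1, edgeR called Dcn higher (1.25, adjusted p = 0.0481) and Pdgfrb lower (-0.65, adjusted p = 0.00744), among 4698 genes called. Dcn was also called by edgeR without OTUB1_KD replicate 2 (1.23, adjusted p = 0.047), among 5523 genes called. Without SFD@M replicate 1, Acta2 (1.17, adjusted p = 0.0304) and Cspg4 (0.71, adjusted p = 0.0469) were called higher by edgeR, among 2492 genes called. Which member was called therefore depended on single libraries, and beside these counts over all genes the calls set no member apart.

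Related genes were read from the same fits. In the lists that follow, genes near 0 in controls passed the filter through the lung-rich libraries alone, so the counts describe the lists and are no test of them. Each count stands beside 39.9% of all genes called higher and 25.8% lower in OTUB1_KD, and 49.5% and 38.7% in SFD@M, and each median beside 0.16 and 0.23 over all genes. Of 4 PDGF ligand genes, 3 were higher and 1 lower in each experiment. Pdgfa had 11.6 ± 0.311 CPM in NC and 66.4 ± 32.1 CPM in OTUB1_KD (log2 fold change 2.45, SE 0.38, edgeR adjusted p = 0.00141). Pdgfb, a ligand of Pdgfrb that endothelium makes, rose by 6.10 log2 units in OTUB1_KD and 7.13 in SFD@M. Pdgfc, another ligand of Pdgfra, fell by 2.01 and 3.07 log2 units, from 56.4 ± 1.4 CPM in NC and 41.8 ± 0.71 CPM in Blank. Pdgfd was at least 592-fold higher in SFD@M than in Blank, where it had 0 counts.

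Of 22 fibroblast genes, 19 were higher and 1 was lower in OTUB1_KD, with a median log2 fold change of 6.28. In SFD@M the counts were 19 and 2 and the median 7.02. Col1a2, a chain of type I collagen, rose by 6.30 and 6.56 log2 units in OTUB1_KD and SFD@M. Col1a1, its partner chain, rose by 2.83 and 4.19. Some fibroblast genes were abundant in the controls, and these did not share a direction. Gsn, the actin-severing protein gelsolin, was at 584 TPM in NC and 255 TPM in Blank and rose by 1.28 and 2.81. Cdh11, a mesenchymal cadherin, was at 10.1 and 11.3 TPM and rose by 2.22 and 1.78. Vegfd, a lymphatic growth factor, was at 8.44 and 12.1 TPM and rose by 2.23 and 1.86. Col3a1, the chain of type III collagen, stood at 557 TPM in NC and 730 TPM in Blank, was not called in OTUB1_KD (-0.24, edgeR adjusted p = 0.44) and fell by 2.05 in SFD@M (edgeR adjusted p = 0.000128). Col6a3, of type VI collagen, was at 146 and 90.3 TPM in the controls and fell by 1.12 and 2.46. Dpt, which encodes dermatopontin, was at 191 and 240 TPM and was called in neither comparison (0.40 and 0.03). In all, 10 of the 22 reached 1 TPM in NC or Blank.

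Pericyte genes beyond Pdgfrb and Cspg4 were nearly absent from the controls. All 14 listed were higher in both comparisons, with medians of 7.75 and 8.25 log2 units, or 7.53 and 8.06 when genes at 0 counts in the control were put at their lower bounds. Their summed level was 16.4 to 19.3 CPM in NC and 447 to 968 CPM in OTUB1_KD, and 5.75 to 6.30 CPM in Blank and 759.5 to 991 CPM in SFD@M. Rgs5, a regulator of G protein signalling in pericytes, rose by 2.93 and 6.44 log2 units. Abcc9, a subunit of the pericyte potassium channel, rose by 7.73 and 8.29 log2 units. Kcnj8, the pore of the same channel, had 1 count over the NC libraries and was called higher in OTUB1_KD, and it was at least 164-fold higher in SFD@M than in Blank, where it had 0 counts. Notch3, a receptor of mural cells, and Mcam were the 2 of 14 that reached 1 TPM in a control, and rose by 2.77 and 4.56 and by 4.91 and 6.67.

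Among 12 genes of a smooth muscle list, 8 were higher and 1 was lower in OTUB1_KD (median 2.15), and 10 were higher and 2 lower in SFD@M (median 3.78). The higher ones included Hhip, a hedgehog-binding protein and not a contractile one. It had 0 counts in both control groups and was at least 493-fold and 606-fold higher. Myh11, the smooth muscle myosin heavy chain, rose by 7.25 and 8.79 log2 units from 0.379 and 0.175 CPM. Cnn1, calponin, rose by 4.21 and 5.91, and Actg2, the enteric actin, by 2.64 and 3.76. Des, desmin, rose by 1.90 and 3.80, and Myl9, a myosin light chain, by 4.08 and 5.36. Mylk, the myosin light chain kinase, was not called in OTUB1_KD (0.66, edgeR adjusted p = 0.115) and rose by 1.41 in SFD@M. Synpo2 was not called in OTUB1_KD (-0.45, edgeR adjusted p = 0.107) and fell by 0.72 in SFD@M. Tpm2, a tropomyosin, was at 107 and 92.7 TPM in the controls and fell by 0.78 and 1.27. Of 6 genes listed with SRF and its cofactors, 2 were higher and 2 lower in OTUB1_KD, and 3 and 3 in SFD@M. Over all genes, 65.7% and 88.1% were called in either direction. Foxf1, a forkhead factor in that list, was among the higher ones (3.67 and 4.70). Srf was not called in OTUB1_KD (0.21, edgeR adjusted p = 0.449) and fell by 0.62 in SFD@M. Myocd, the myocardin cofactor of cardiac and smooth muscle, had 0 counts in both control groups and was at least 36.0-fold and 68.2-fold higher. Mrtfa, a cofactor found in many cell types, fell by 0.93 and 1.09.

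Of 8 other small leucine-rich proteoglycans listed, 7 were tested in each experiment, and Kera did not pass the filter on low counts. Of the 7, 5 were higher and 0 lower in OTUB1_KD, and 7 were higher in SFD@M. Bgn, biglycan, rose by 3.11 and 4.93 log2 units from 106 and 30.8 CPM. Fmod, fibromodulin, rose by 3.70 in OTUB1_KD and was called higher in SFD@M against 0 counts in Blank. Ogn, osteoglycin, was not called in OTUB1_KD (0.94, edgeR adjusted p = 0.107) and rose by 2.12 in SFD@M. Epyc, on the same stretch of the map as Lum and not in the list, differed by -1.75 in OTUB1_KD (SE 0.957) and was not called (edgeR adjusted p = 0.145). No difference between Lum and the other proteoglycans was tested. Of 8 genes for the nephronectin receptor and basement membrane partners, 6 were higher and 1 lower in OTUB1_KD, and 7 and 1 in SFD@M. Itga8, the receptor chain for nephronectin, was at 0.0811 and 0.0775 CPM in NC and Blank and rose by 10.80 and 11.29 log2 units. Its partner Itgb1 was at 365 and 314 TPM in those groups, was not called in OTUB1_KD (-0.26, edgeR adjusted p = 0.222) and was higher by 0.27 in SFD@M. Fras1, a basement membrane protein, rose by 5.74 and 7.01. Nid1, the basement membrane protein nidogen, fell by 1.37 and 1.38. Of 4 helix-loop-helix partners of Tcf21, Tcf12 fell by 1.74 and 1.86 and Tcf3 by 0.50 and 1.22, while Tcf4 was not called (-0.25 and -0.08).

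**Figure D4:**
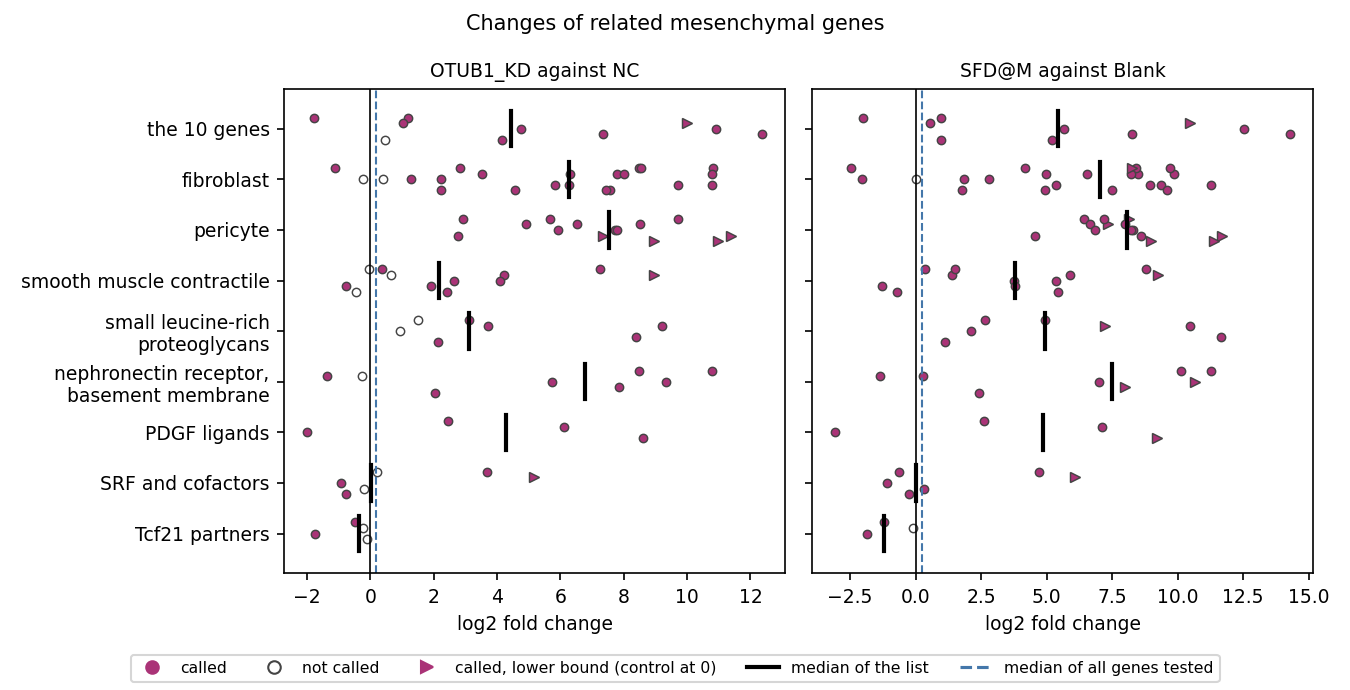
Log2 fold changes of the 10 genes and of related genes by list in both experiments, each point a gene, with the list median in black and the median of all genes tested as a dashed line. Genes at 0 counts in the control are drawn as triangles at their lower bounds; all 14 pericyte genes lie at or above 2.77, while the Tcf21 partners lie below 0.

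Several members have more than 1 transcript in the deposited table, and the counts were split among them by the authors' estimation. Of the Dcn counts, NM_001190451 took 93.9% to 100% in NC and 92.0% to 100% in Blank. In OTUB1_KD it took 72.7% to 85.3% and in SFD@M 64.3% to 69.0%. The groups did not overlap in either experiment (exact two-sided permutation test, p = 0.1, the smallest that 3 against 3 libraries allow). The rest went to NM_007833, which has the same coding region of 1062 bases in GENCODE M21, so the encoded decorin is the same. For Pdgfra, NM_011058 took 58.2% to 67.7% in NC and 68.3% to 98.0% in OTUB1_KD, and 72.0% to 77.7% in Blank and 89.8% to 95.7% in SFD@M, again with p = 0.1 by the exact test. XM_006504262, the next Pdgfra transcript in NC at 16.6% to 24.0%, took 2.18%, 0.528% and 25.7% in the OTUB1_KD libraries and at most 1.26% in SFD@M. Replicate 3 of OTUB1_KD, the lowest in Pdgfra, thus resembled the controls in this share. The Acta2 shares of NC and OTUB1_KD overlapped (exact permutation p = 0.2). For Pdgfrb, NM_008809 took 59.9% to 68.3% in NC and 71.2% to 82.2% in OTUB1_KD, without overlap (exact permutation p = 0.1). In Blank it took 59.8% to 76.1% and in SFD@M 68.5% to 84.4%, which overlapped (exact permutation p = 0.3). Npnt was read in the lung-rich libraries alone, where NM_001287103, with a coding region of 1371 bases, took 56.5% to 74.8%.

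**Figure D5:**
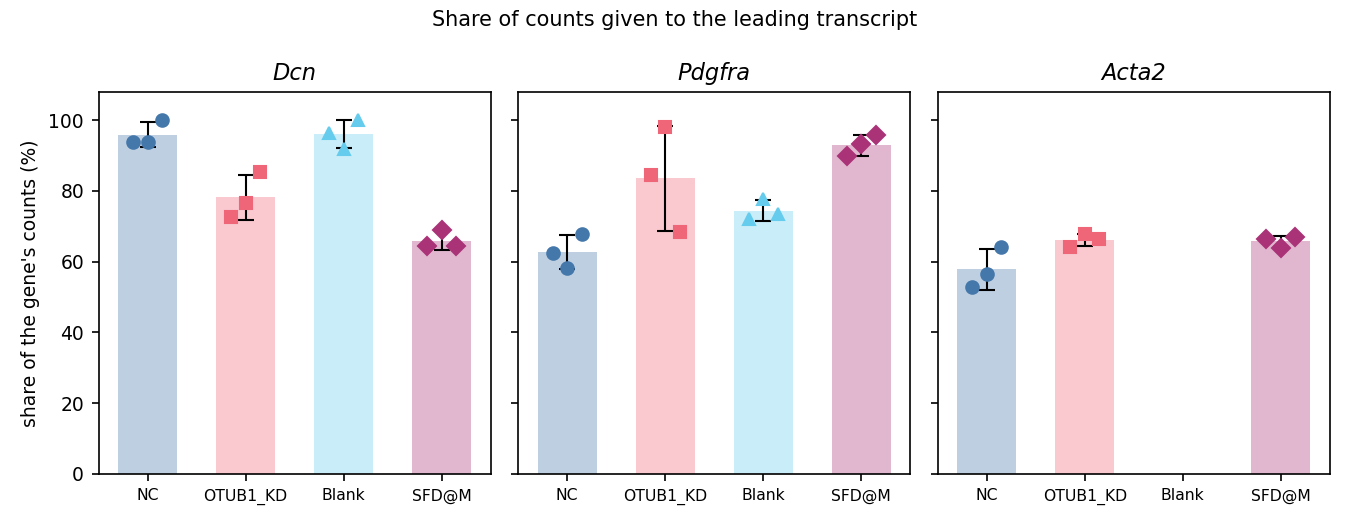
Share of a gene's expected counts given to its leading transcript, with the mean as a bar from 0, SD as the error bar and 1 point per library. Dcn falls from at least 92.0% in controls to at most 85.3%, Pdgfra is higher in the lung-rich groups, and Acta2 is not drawn for Blank, where 2 libraries had under 50 counts.

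The genes most like each member over the 12 libraries were found among 13781 genes, by the root mean square difference of centred log2(CPM + 1) profiles. Tcf21 was nearest to Cyp2s1 (0.165) and Tagln to Fbln1 (0.23), an extracellular matrix gene. Npnt was nearest to Cdh5 (0.228), the cadherin of endothelium, and to Cldn18 (0.234), a claudin of alveolar epithelium. Inmt was nearest to Fhl1 (0.293) and Sftpd (0.307), a surfactant protein of epithelium. Nearest neighbours of these members thus included genes of other lung cell types. Acta2 was nearest to Plaat3 (0.23) and Dcn to Adamts5 (0.254). Pdgfra was nearest to Zfp518a (0.134), Pdgfrb to Mcrip1 (0.122) and Cspg4 to Hexa (0.102), where small distances also reflect small ranges. Lum had the most distant nearest gene, Cryz (0.316), and among the members its closest was Cspg4 at 1.39. Among the members themselves, Tagln and Tcf21 (0.412) and Inmt and Npnt (0.423) were the closest pairs. The 12 libraries share groups and depth, so these distances are descriptions.

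Markers of several other lung cell types were also higher in the lung-rich libraries. All 10 alveolar epithelial and all 10 endothelial markers were called higher in both comparisons. So were all 5 mesothelial and all 8 leukocyte markers, where 39.9% and 49.5% of all genes were called higher. The lung-rich groups were named from the sums of these endothelial markers, and the controls were described by low endothelial and leukocyte sums. The endothelial and leukocyte calls therefore follow from that description and add no support. Markers nearly absent from the controls passed the filter on low counts through the lung-rich libraries alone, so these counts are no test. The 4 red cell markers summed to 6102 to 12380 CPM in OTUB1_KD and 9.66 to 208 CPM in SFD@M, against at most 1.06 CPM in controls. In OTUB1_KD replicate 1, where Tcf21, Inmt, Npnt, Acta2, Tagln and Pdgfrb were lowest, the Y-linked sum was the highest of its group. Dcn, Pdgfra and Lum were lowest in OTUB1_KD replicate 3 and Cspg4 in OTUB1_KD replicate 2. The 5 dividing-cell markers summed to 181 to 802 CPM in OTUB1_KD and 24.2 to 85.5 CPM in SFD@M, against 2516 to 2608 CPM in NC and 2589 to 2656 CPM in Blank. Cardiac muscle markers reached 469 CPM in OTUB1_KD and 491.5 CPM in SFD@M, beside at most 2.73 CPM in controls. The skeletal actin Acta1 was at 59.5 CPM in OTUB1_KD replicate 1 and averaged 19.9 ± 34.4 CPM over the group. The part of these other cells in the member values was not tested.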

How the data were processed

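Poly(A) RNA libraries, 12 in all, were grouped by titles and treatment labels; Blank titles carry KD codes, and the saline label decided that group. The authors deposited a table of 70659 transcripts with expected counts (estimated counts that need not be whole) and TPM, per the file headers. RSEM 1.3.1, Bowtie2, DESeq2 1.4.5 and the build GRCm39 are named, with no role, in the submitters' processing notes. No source used here states strand handling, so reads of antisense or overlapping genes cannot be told apart. A further 40 columns of values were not used. Expected counts were summed per Entrez gene and rounded. Symbols were matched for 19155 of 19212 genes through the RefSeq table of GRCm38.p6, and the 57 unnamed genes held at most 0.342% of counts.

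Each comparison was fitted over its 6 libraries with edgeR 4.0.16 in R 4.3.3 (filterByExpr, TMM, robust quasi-likelihood test), with Benjamini-Hochberg adjusted p below 0.05 over all genes as a call. Differences between experiments were an interaction over 12 libraries. A floor of 3 counts over a group is about 0.06 CPM. Intervals and floors cover counting error only. Simulated counts were used to check the fits: the knockdown comparison (14785 genes) recovered 17.3% of simulated 2-fold changes and 78% of 4-fold changes, with 9 of 104 calls false. The treatment comparison (14824 genes) recovered 67% and 94%, with 16 of 177 calls false. Both groups were simulated with the same spread and few genes were changed, unlike in the data. The simulation therefore does not check the scaling or the unequal spread of the groups.

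The members, lists and tests were chosen with earlier results of these data known. The rule for names took all 10 members whatever their p, with the first 3 tested genes of each list, list genes at 1 TPM or more in a control, and the 3 genes most like each member. The text names part of those list genes and neighbours, and gives the marker lists of other cells by counts and sums. Pdgfd, Kera, Epyc, Tie1 and Hhip fall outside that rule and were named after their values were seen. Promoters were read from RefSeq (GRCm38.p6), where 6 of 10 members had a window. Alternatives were other size factors, no filter, DESeq2 1.42.0, limma 3.58.1 on log2(TPM + 1) or log2(TPM + 0.1), all 12 libraries in 1 fit, each replicate left out and a replicate block.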

Additional observations from a re-analysis of the deposited data

How the results depend on the processing

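In OTUB1_KD against NC and SFD@M against Blank, all members kept their direction under every alternative run, and calls changed only for Cspg4 (OTUB1_KD) and Pdgfrb (SFD@M), as given with those genes. Leaving out each replicate gave 7991 to 11141 called genes, 8 to 9 members higher and 1 lower in OTUB1_KD, and 12776 to 13324 genes, 9 members higher and 1 lower in SFD@M.

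In SFD@M against OTUB1_KD the 2 called genes became 15 with no filter, 1426 with DESeq2, 10 and 8 with limma on log2(TPM + 1) and log2(TPM + 0.1), 5 on log2(TPM + 1) with no filter, 2863 with all 12 libraries in 1 fit (where 2 members were called lower) and 7 with the replicate block. Leaving out a replicate gave 0 to 1875, with 1875 without OTUB1_KD replicate 2. Uncalled differences changed sign there. Npnt was at 0.028 in both fits on log2(TPM + 1), 0.0298 on log2(TPM + 0.1) and 0.072 with the replicate block. With a replicate left out, Npnt ranged from -0.48 (without OTUB1_KD replicate 1) to 0.23, Inmt from -0.00905 (without OTUB1_KD replicate 1) to 0.80, Tagln from -0.47 (without OTUB1_KD replicate 1) to 0.12 (without SFD@M replicate 1), and Dcn from -0.21 (without SFD@M replicate 1) to 0.28. The cause was not tested.

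Blank against NC gave 2699 called genes in the fit of all 12 libraries against 8977, and 2 members higher (Pdgfra and Pdgfrb) with no filter, with the 3 TPM fits and without NC replicate 2. Leaving out a replicate gave 8697 to 8818 genes, 1 to 2 members higher and 4 to 5 lower (5 without NC replicate 1 or Blank replicate 3). For the difference between experiments, DESeq2 and the replicate block each called 1 member higher (the block called Acta2, 0.96, edgeR adjusted p = 0.0446). Leaving out a replicate gave 2090 to 5523 genes against 3537, 0 to 2 members higher and 0 to 1 lower, and Lum ranged from -0.51 (without OTUB1_KD replicate 3) to 0.29 (without OTUB1_KD replicate 1), with 0.04 without SFD@M replicate 2. In shares of TPM rather than of counts, the leading Acta2 transcript took 34.6% in NC, 43.5% in OTUB1_KD and 42.6% in SFD@M.

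Deviations of same-numbered libraries from their group means had correlations of -0.249 to 0.0787. Control libraries differed by little more than sampling noise, so these correlations cannot show whether the replicate numbers pair the samples. With the block, called genes numbered 9362 in OTUB1_KD against NC, 13010 in SFD@M against Blank, 8947 in Blank against NC and 3016 for the difference.

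Depth limits the ratios of Tcf21, Npnt, Inmt and Tagln, whose control values rest on 0 to 37 counts over 3 libraries. With 3 libraries a group the exact tests of transcript shares could not pass 0.05.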
